A study of Mus musculus with 9 samples.

Results

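The insulin-like growth factor (IGF) system of the mouse heart was described here through 10 genes, taken by name from the 23747 genes of 9 single-nucleus expression tables. They were the ligands Igf1 and Igf2, the receptors Igf1r and Igf2r, the binding proteins Igfbp3, Igfbp4, Igfbp5, Igfbp6 and Igfbp7, and the protease Pappa. The rule names the genes and sets no threshold on a measured value, but the choice was made with earlier results of these data known. IGF1 and IGF2 signal through the tyrosine kinase receptor IGF1R, while IGF2R carries IGF2 and mannose 6-phosphate-tagged enzymes to lysosomes. The secreted binding proteins hold the ligands away from the receptor, and pappalysin-1, the product of Pappa, cleaves IGFBP4 and IGFBP5 and so frees the ligand beside the cell. In the heart the axis is known for cardiomyocyte growth and survival and for signals between fibroblasts, macrophages and muscle.

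The 9 hearts came from C57BL/6 mice aged 8 weeks, 3 in each group. In the sham group vehicle was gavaged over 7 days, after which a needle was passed and the artery left untied. I/R mice (ischaemia and reperfusion) received the same vehicle, then ligation of the left anterior descending coronary artery for 30 min and 24 h of reflow. SBP mice received Shexiang Baoxin Pill, a traditional Chinese medicine that the labels name MUSKARDIA, for 7 days before the same operation. No group received SBP without ischaemia, so an effect of SBP on the uninjured heart could not be read. The tissue was taken below the ligation, and nuclei rather than whole cells were sequenced, so the values describe mostly nuclear RNA.

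The tables held 49171 nuclei and 135423853 unique molecular identifiers (UMIs), with 10329520 to 18205985 UMIs and 4576 to 6418 nuclei per heart. Medians per nucleus ran from 1540 to 2031 UMIs. Of 48881 distinct barcodes, 290 occurred in more than 1 library, 4 to 14 for a given pair. After 85 marked doublets were removed, clusters were named from marker genes, which gave 10530 cardiomyocyte-like, 13462 endothelial-like, 14117 fibroblast-like and 9562 myeloid-like nuclei, called by these names from here on. T cells (771 nuclei), B cells (335), smooth muscle cells and pericytes (210) and Schwann cells (99) were too few for most tests. A library stood apart: I/R replicate 1 held 777 nuclei of an Npas2-led fibroblast cluster that had 0 to 41 nuclei in each other heart. Summed cardiomyocyte markers in nuclei of the other types were also higher in sham hearts, at 5624 to 6706 CPM in fibroblasts (CPM, UMIs in each 1000000 UMIs) against 1668 to 2739 CPM in I/R hearts, with like gaps in endothelial (8767 to 10802 against 3239 to 5774 CPM) and myeloid nuclei (7076 to 7787 against 1972 to 3195 CPM). The part of this background in the results was not tested.

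The genes lie apart in the genome (GRCm38). The protease gene Pappa spans 233.336 kb at chr4:65124174-65357509 (+). Igfbp3 lies at chr11:7206086-7213923 (−), Igfbp4 at chr11:99041244-99054392 (+), Igf2r at chr17:12682406-12769664 (−) and Igf1r at chr7:67952827-68233668 (+). The ligand genes are Igf1 at chr10:87858265-87937042 (+) and Igf2 at chr7:142650766-142666816 (−). Igf2r is overlapped on the opposite strand by the noncoding gene Airn (chr17:12741311-12860136), and it is not stated in the sources used here whether reads were counted by strand, so reads of this pair may not be separable. Igf1, Igf2 and Igfbp7 have antisense neighbours as well. Igf2 is also overlapped on its own strand by the protein-coding gene Gm49394 (chr7:142650769-142669942), which is not among the measured genes. Its part in the low Igf2 counts was not tested.

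The windows of 250 bases before the RefSeq transcription start are printed for the 3 members with an entry that rose after I/R in a whole cell type. These differ in the short words found in them. Capitals mark any match, on either strand, to the letters searched: the AP-1 site TGANTCA, the GC box GGGCGG, the hypoxia element core ACGTG and the TATA word TATAAA. They are written 5′ to 3′ on the gene's own strand, from RefSeq on GRCm38.p6, for Igf2r (chr17:12769707-12769956, −), Igfbp4 (chr11:99040994-99041243, +) and Igfbp3 (chr11:7213924-7214173, −).
Igf2r: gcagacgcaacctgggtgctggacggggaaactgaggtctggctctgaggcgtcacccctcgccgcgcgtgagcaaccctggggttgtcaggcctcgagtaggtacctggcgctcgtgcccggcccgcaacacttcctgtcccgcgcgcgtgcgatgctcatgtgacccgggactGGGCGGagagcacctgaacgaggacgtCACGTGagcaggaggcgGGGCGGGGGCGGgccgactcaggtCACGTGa
Igfbp4: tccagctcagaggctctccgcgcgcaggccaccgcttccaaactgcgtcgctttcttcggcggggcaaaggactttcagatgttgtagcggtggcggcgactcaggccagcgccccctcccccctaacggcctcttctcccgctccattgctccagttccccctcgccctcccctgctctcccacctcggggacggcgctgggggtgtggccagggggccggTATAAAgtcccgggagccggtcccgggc
Igfbp3: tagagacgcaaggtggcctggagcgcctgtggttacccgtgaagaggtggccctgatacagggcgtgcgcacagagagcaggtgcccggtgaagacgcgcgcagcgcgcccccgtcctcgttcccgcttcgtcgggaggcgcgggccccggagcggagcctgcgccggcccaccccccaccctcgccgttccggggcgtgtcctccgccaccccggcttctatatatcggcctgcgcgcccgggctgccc
The Igf2r window held 3 GC boxes and 2 CACGTG words, which read as ACGTG on both strands and so counted 4 times. The Igfbp4 window held a TATA word 28 bases before the start. The Igfbp3 window held none of the 4 searched motifs. It did hold the letters tatatat near its end, which the exact word TATAAA does not match, so a lack of TATA-like letters was not shown. Of 32851 mouse promoter windows of this length, 32.7% held a GC box, 16.6% the ACGTG core, 12.4% TATAAA and 6.75% the AP-1 letters. A match is a description of the sequence and no evidence of binding. Of the 10 genes, 9 had at least 1 window, and Pappa is named only.

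The genes differed in where they were held. Levels are CPM of the UMIs summed over a cell type's nuclei in a heart, with totals scaled by TMM factors, so that 1 heart gives 1 value per type. Since 3′ tags from nuclei favour long genes, levels are compared between cell types and not between genes.

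The ligands were unevenly spread. Igf1, the main growth-promoting ligand, was highest in myeloid nuclei (51.4 to 267 CPM over the 9 hearts) and fibroblasts (58.6 to 172 CPM), lower in endothelial nuclei (17.7 to 41.9 CPM) and lowest in cardiomyocytes (1.33 to 16.5 CPM). The myeloid and fibroblast levels did not differ beyond their spread (higher in myeloid nuclei in 6 of 9 hearts, exact sign-flip permutation p = 0.25, adjusted p = 0.484). Igf2, the imprinted fetal ligand, gave only 96 UMIs in all nuclei, and 68 of these were endothelial. Its endothelial level of 1.63 to 4.87 CPM exceeded the next type, myeloid nuclei, in 9 of 9 hearts (exact p = 0.00391, adjusted p = 0.0469). Within the endothelium Igf2 was at 3.57 to 9.21 CPM in endocardial nuclei, on 15 to 26 UMIs a group, whereas the capillary nuclei held it at 0 in 6 of 9 hearts and reached 2.06 CPM. Arterial nuclei reached 8.55 CPM, on 1 to 2 UMIs a group. No Igf2 UMI was seen in B cells or in smooth muscle cells and pericytes, where 0 counts allow up to 8.24 and 2.37 CPM.

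Both receptors were found in all the main types. Igf1r was at 495 to 732 CPM in endothelial nuclei, 621 to 1071 CPM in fibroblasts, 316 to 525 CPM in myeloid nuclei and 245 to 498 CPM in cardiomyocytes. The endothelial level was above the myeloid one in 9 of 9 hearts (exact permutation test, adjusted p = 0.0469). Fibroblasts, smooth muscle cells and endothelial nuclei followed each other in the order, but the pairs with smooth muscle rested on 6 hearts and could not pass, and fibroblasts were not tested against endothelial nuclei. Igf2r reached 73.6 to 166 CPM in fibroblasts, 98.2 to 159 CPM in endothelial nuclei and 63.3 to 126 CPM in cardiomyocytes. Fibroblasts and endothelial nuclei were not separated (higher in fibroblasts in 5 of 9 hearts, exact permutation test, adjusted p = 0.956), and cardiomyocytes were not tested against either. In myeloid nuclei it ran from 16.2 to 86.4 CPM.

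The binding proteins were mostly highest in fibroblasts or in endothelial nuclei. Igfbp7, which binds IGFs weakly and is rich in vessels, was highest in fibroblasts (494 to 830 CPM) and high in smooth muscle cells and pericytes and in endothelial nuclei (233 to 633 CPM), against 10.9 to 24.1 CPM in cardiomyocytes. Igfbp4 and Igfbp6 were also highest in fibroblasts, Igfbp4 at 56.8 to 111 CPM and Igfbp6, which prefers IGF2, at 10.1 to 31.4 CPM. Igfbp5 was highest in endothelial nuclei (57.0 to 480 CPM). Igfbp3, the main carrier of IGF1 in blood, had its highest means in smooth muscle cells, endothelial nuclei and fibroblasts, with no neighbouring pair among them passing. The fibroblast level was above the myeloid one in 9 of 9 hearts (exact permutation test, adjusted p = 0.0469), which in turn was above the cardiomyocyte level in 9 of 9 hearts (adjusted p = 0.0469).

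Pappa lay mostly in fibroblasts, which held 59.8 to 71.8% of its UMIs in sham, 81.3 to 91.6% in I/R and 76.9 to 88.5% in SBP hearts. Fibroblast levels ran from 50 to 408 CPM, against 30.2 to 148 CPM in smooth muscle cells and pericytes of 6 hearts, 8.56 to 24.7 CPM in endothelial, 2.90 to 23.3 CPM in myeloid and 1.34 to 8.72 CPM in cardiomyocyte nuclei. Schwann nuclei, the glia of cardiac nerves, stood higher still in the 1 heart with at least 20 of them (801 CPM in sham replicate 3), and they held 7.39 to 14.1% of the Pappa UMIs of sham hearts. Their share was 0.301 to 6.61% in I/R and 1.92 to 9.39% in SBP hearts. These shares rest on 79, 133 and 68 UMIs in sham, I/R and SBP hearts, from 5 to 20 Schwann nuclei a heart. With 1 heart of at least 20 Schwann nuclei, neither their level nor a change between groups could be tested. The endothelial level was above the myeloid one in 9 of 9 hearts (exact permutation test, adjusted p = 0.0469). Of the 60 neighbouring pairs in these orders over 7 cell types, 5 differed at an adjusted p of 0.05, all at 0.0469. None of the 5 passed with median-of-ratios scaling or a pseudocount of 5, and 0 to 16 pairs passed when 1 heart was left out. With 9 hearts the smallest exact p was 0.00391, and with the 6 hearts that had enough smooth muscle nuclei it was 0.0312, so pairs with that type could not pass.

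**Figure D1:**
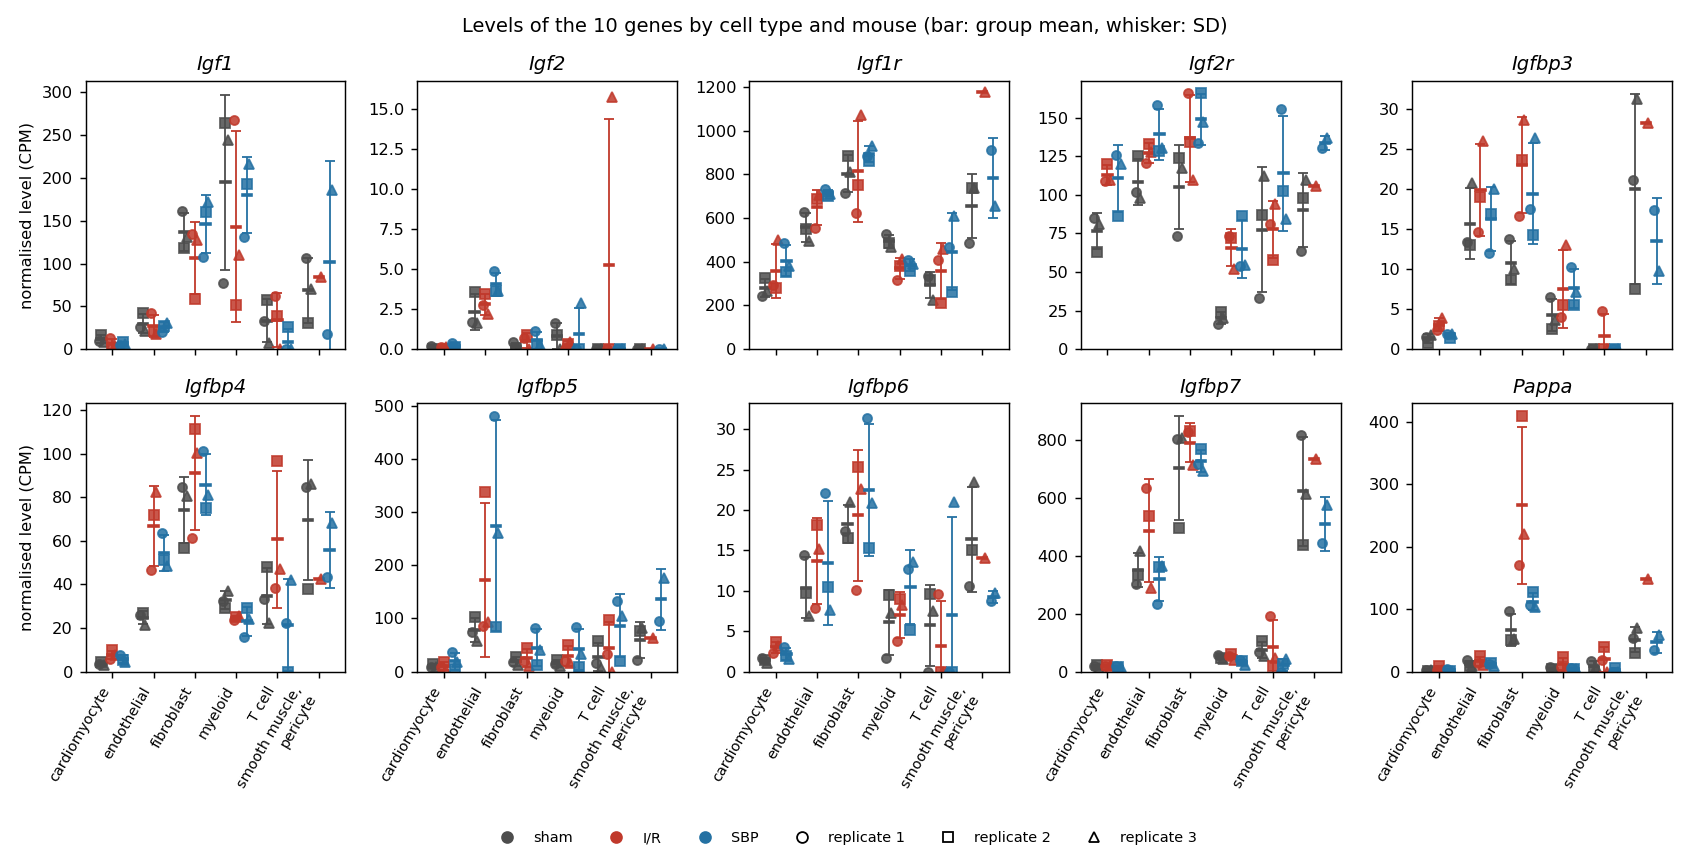
Level of each of the 10 genes (CPM, linear axis from 0) in 6 cell types, with 1 point per heart, colours for sham, I/R and SBP, shapes for replicates, bars for group means and whiskers for SD. Pappa stands out in I/R fibroblasts (171 to 408 CPM), and myeloid Igf2r is lower in sham hearts (16.2 to 24.0 CPM) than in the operated groups (51.9 to 86.4 CPM).

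The first comparison asked what 24 h of reperfusion after ischaemia did to these genes within each cell type. Pappa rose in fibroblasts, Igfbp4 rose in endothelial nuclei, Igf2r rose and Igf1r fell in myeloid nuclei, and Igfbp3 rose in fibroblasts. A change was called at an adjusted p of at most 0.05 over all genes tested in that type and a log2 fold change beyond 0.25, from a limma fit to log2(CPM + 1) of the 9 sums, so fold changes of low genes are understated. The adjusted p-values measure the spread between 3 hearts a group, and the exact permutation test of 3 against 3 cannot go below 0.1, which every called change reached.

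Pappa in fibroblasts had the largest log2 fold change of those called in the 4 cell types. Its level was 96.4, 50 and 52.7 CPM in the sham hearts, 171, 408 and 220 CPM in the I/R hearts, and 107, 127 and 103 CPM in the SBP hearts. All 3 I/R hearts lay above all SBP hearts, and all SBP hearts above all sham hearts, with I/R replicate 2 the highest. The I/R mean was 4.01-fold the sham mean, a log2 fold change of 1.94 ± 0.32 (SE; 95% interval 1.24 to 2.65, adjusted p = 0.0039), and without I/R replicate 2 it was 1.59 (adjusted p = 0.00627). In the other types Pappa did not pass, with log2 fold changes of 0.73 in cardiomyocytes (adjusted p = 0.481) and 0.43 in endothelial nuclei (adjusted p = 0.564). In those types too I/R replicate 2 had the highest level, 8.72 and 24.7 CPM. In myeloid nuclei Pappa was under the filter on low values. The Pappa change in cardiomyocytes minus that in fibroblasts, −1.21, was itself not called (limma, adjusted p = 0.144).

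Igfbp3 rose in fibroblasts as well, from 13.8, 8.63 and 9.99 CPM in sham to 16.7, 23.6 and 28.7 CPM in I/R hearts, with 17.5, 14.3 and 26.5 CPM in SBP hearts. Sham and I/R hearts did not overlap. The log2 fold change was 1.00 ± 0.27 (SE, adjusted p = 0.0367), resting on 24 to 31 UMIs a heart in sham and 71 to 119 in I/R. The call was lost, with an adjusted p between 0.053 and 0.128, when sham replicate 2 or 3, I/R replicate 2 or 3, or SBP replicate 1 was left out. With 2 of 9 members called, the fibroblast share can be read against 11.1% of the 13055 genes tested there, and the groups did not overlap for 2 of the 9, against 26.6% of all genes.

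The substrate of the protease, Igfbp4, changed in the endothelium. It stood at 26.2, 26.7 and 21.2 CPM in sham, 46.4, 71.8 and 82.5 CPM in I/R, and 63.7, 51.1 and 48.5 CPM in SBP hearts. Every operated heart lay above every sham heart. The I/R mean was 2.71-fold the sham mean, a log2 fold change of 1.36 ± 0.21 (SE, adjusted p = 0.00829). In fibroblasts, where Igfbp4 was highest, it did not pass (0.26, adjusted p = 0.535), and in myeloid nuclei it was lower in all 3 I/R hearts (23.8 to 25.3 CPM) than in sham (29.2 to 37.0 CPM) without passing (log2 fold change −0.47, adjusted p = 0.182). The Igfbp4 change in endothelial nuclei minus that in fibroblasts, 1.10, was itself not called (limma, adjusted p = 0.0658). Of 9 endothelial members, 1 was called, against 3.07% of 12223 genes, and groups did not overlap for 1 of 9, against 20.9%. Summed myeloid markers in the endothelial nuclei were 310 to 437 CPM in sham and 667 to 950 CPM in I/R hearts, and their part in the Igfbp4 change was not tested.

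Igf2r rose in myeloid nuclei. The level was 16.2, 24.0 and 20.3 CPM in sham, 73.6, 71.9 and 51.9 CPM in I/R, and 53.8, 86.4 and 54.8 CPM in SBP hearts. Sham hearts were separated from all 6 operated hearts. The I/R mean was 3.26-fold the sham mean, a log2 fold change of 1.58 ± 0.23 (SE, adjusted p = 0.000984). The overlapping antisense gene Airn moved beside it, from 352, 281 and 230 CPM to 688, 858 and 640 CPM (log2 fold change 1.26 ± 0.21, adjusted p = 0.002), and was the gene most like Igf2r among 10094 (Pearson r = 0.93 over the 36 sums of 9 hearts and 4 types, which share libraries and cell types). Outside myeloid nuclei, Igf2r had log2 fold changes of 0.59 in cardiomyocytes, 0.22 in endothelial nuclei and 0.38 in fibroblasts, none called, although the cardiomyocyte levels of sham (63.3 to 85.1 CPM) and I/R hearts (109 to 120 CPM) did not overlap.

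The signalling receptor Igf1r fell by 0.51 ± 0.15 (SE) on the log2 scale in myeloid nuclei (adjusted p = 0.0363), from 525, 486 and 469 CPM in sham to 316, 379 and 414 CPM in I/R hearts, with 408, 357 and 391 CPM in SBP hearts. The sham hearts were above all others. This call held in 8 of 21 alternatives. It was lost, with adjusted p-values of 0.0511 to 0.13, when any single heart other than I/R replicate 3 was left out. Of 8 myeloid members tested, 2 were called, 1 up and 1 down, beside 17.0% of 10896 genes, and groups did not overlap for 3 of 8, beside 35.4%, so the myeloid share of this family was near that of all genes. Resident macrophages were 91.2% of myeloid nuclei in sham and 29.1% in I/R hearts, where injury macrophages, described further on, were 60.3%. Igf1r stood at 495 to 570 CPM in the resident macrophages of sham and 342 to 462 CPM in those of I/R hearts (−0.33, interval −0.69 to 0.03, adjusted p = 0.309), and at 283 to 351 CPM in the injury macrophages of I/R hearts. The part of this shift in the Igf1r change was not tested.

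In cardiomyocytes none of the 9 members tested was called, while 5 had an unadjusted p under 0.05, as had 1809 of the 12902 genes tested. Igf2r, Igfbp3, Igfbp4 and Igfbp6 were higher in every I/R heart than in every sham heart, with log2 fold changes of 0.59 to 0.91 and adjusted p-values of 0.156 to 0.248. Igfbp3 and Igfbp6 were low there, on 31 and 29 UMIs in sham and 63 and 60 UMIs in I/R hearts. The part of RNA from other cell types in these values was not tested. Igf1 went the other way, at 9.66, 16.5 and 8.84 CPM in sham and 13, 1.33 and 3.18 CPM in I/R hearts (log2 fold change −1.23, adjusted p = 0.347), and without I/R replicate 1 it passed (adjusted p = 0.0103). The call rate in this type was 0.806% of 12902 genes, and the groups did not overlap for 16.3% of genes and for 4 of the 9 members. T cell sums allowed a test of 1 member, Igf1r, which was not called.

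Over whole hearts, with all nuclei summed, Pappa was the 1 member of 10 called, beside 10.8% of 16044 genes. It measured 31.3, 14.7 and 16.1 CPM in sham, 46.1, 115 and 56.7 CPM in I/R, and 37.1, 35.6 and 32.9 CPM in SBP hearts (I/R against sham 1.75 ± 0.35 SE, adjusted p = 0.0158). Without sham replicate 2 or 3 the adjusted p was 0.052 or 0.0674. In such sums a change in the number of nuclei of a type and a change of RNA per nucleus cannot be told apart.

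**Figure D2:**
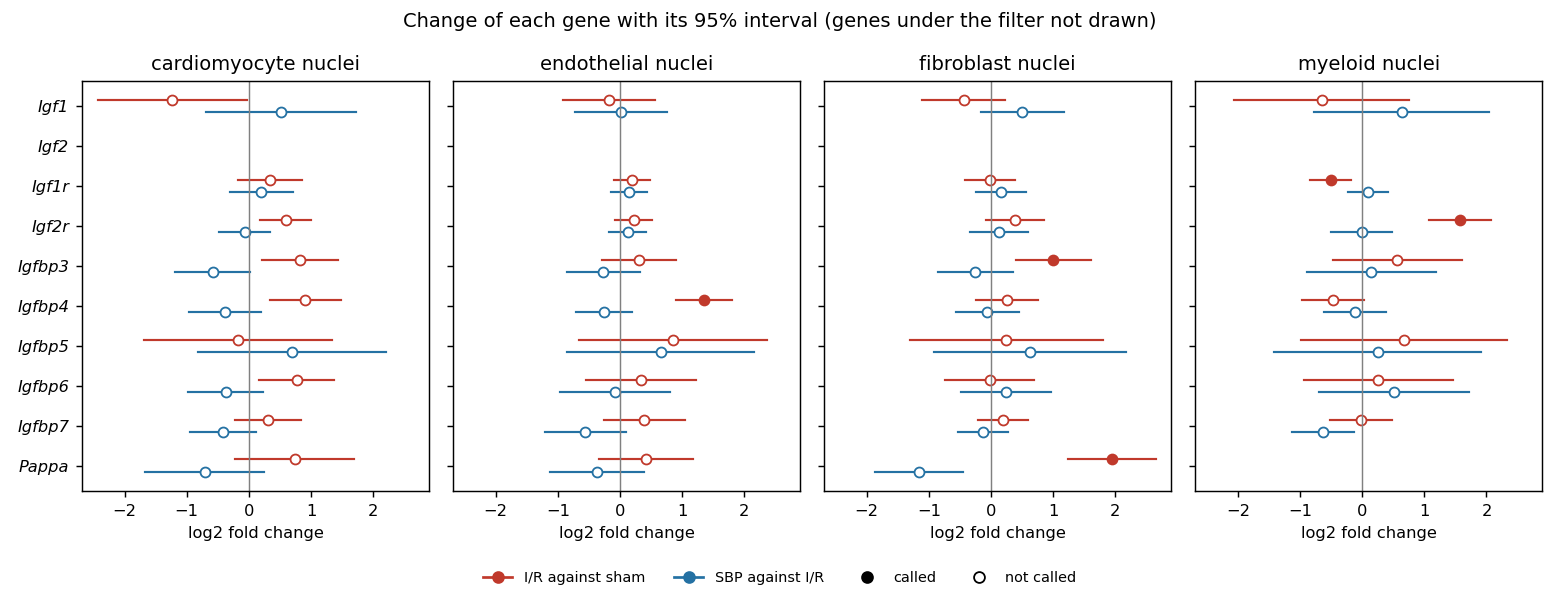
Log2 fold change of each gene, with its 95% interval, for I/R against sham (red) and SBP against I/R (blue) in 4 cell types, filled points marking called changes. The 5 filled red points lie at 1.94 for fibroblast Pappa, 1.00 for fibroblast Igfbp3, 1.36 for endothelial Igfbp4 and at 1.58 and −0.51 for myeloid Igf2r and Igf1r, and no blue point is filled.

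The second comparison asked what SBP pretreatment changed in the reperfused heart. No member passed the test in any of the 4 cell types or in whole-heart sums, and neither did any other gene there: limma called 0% of genes in cardiomyocytes, endothelial nuclei, fibroblasts, myeloid nuclei and whole hearts, with 270, 619, 456, 433 and 698 genes at an unadjusted p under 0.05. For 3 member changes the p stood under 0.05 before adjustment. Fibroblast Pappa was lower in every SBP heart (103 to 127 CPM) than in every I/R heart (171 to 408 CPM), a log2 difference of −1.16 (95% interval −1.86 to −0.45, unadjusted p = 0.00425, adjusted p = 1.00 by limma), and whole-heart Pappa followed it (−0.93, interval −1.70 to −0.16). Myeloid Igfbp7 was at 39.5, 35.2 and 24.2 CPM in SBP against 55.0, 60.5 and 41.4 CPM in I/R hearts (−0.64, interval −1.14 to −0.14, adjusted p = 1.00). The groups did not overlap for 2 of 9 members in cardiomyocytes, 0 of 9 in endothelial nuclei, 1 of 9 in fibroblasts and 1 of 8 in myeloid nuclei, beside 5.56%, 9.34%, 8.22% and 8.98% of all genes.

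For the other members called after I/R, every SBP against I/R interval included 0. For myeloid Igf2r the SBP against I/R difference was −0.01 with an interval of −0.51 to 0.49, and for endothelial Igfbp4 it was −0.26 (−0.71 to 0.19). For fibroblast Igfbp3 it was −0.25 (−0.85 to 0.35), and for myeloid Igf1r 0.09 (−0.23 to 0.42). Intervals of this width hold changes in either direction, so a like level in both groups was not shown.

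SBP against sham shares its sham hearts with the first comparison, and the values stand side by side for that reason only. Myeloid Igf2r was called (1.57 ± 0.23 SE, adjusted p = 0.00135; 1 of 8 members, beside 12.3% of genes). Endothelial Igfbp4 was called too (1.10 ± 0.21 SE, adjusted p = 0.0229; 1 of 9 members, beside 1.99%), but the call was lost on leaving out any sham heart or SBP replicate 1 or 3 (adjusted p 0.051 to 0.105). Fibroblast Pappa was not called (0.78, interval 0.08 to 1.49, adjusted p = 0.203) and neither was any other fibroblast or cardiomyocyte member, where 5.82% and 0.132% of genes were, nor any in whole hearts, where 2.97% were.

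A finer division of the nuclei showed where these levels lay. Clustering within types left the pathway genes out of the features. Fibroblasts formed 4 clusters that followed the groups: a Kcnip1-led one with 4169 of its nuclei in sham hearts, a Scara5 and Inmt one mostly in operated hearts, the Npas2-led one of I/R replicate 1, and an injury-activated one with Tnc, Postn and Cthrc1, genes of wound-healing matrix. In sham hearts the Kcnip1-led cluster held 470 of the 508 fibroblast Pappa UMIs. In operated hearts the injury-activated cluster carried most of the Pappa signal. It held 76.5% of the fibroblast Pappa UMIs in I/R hearts with 23.1% of the fibroblast nuclei, and 66.6% with 16.1% in SBP hearts. Its nuclei were deeper, with a median of 3146 UMIs against 1593 to 1802 in the other fibroblast clusters, which raises a share of UMIs over one of nuclei. Its leading genes also included Top2a and Knl1, genes of cycling nuclei, which were not separated from the rest. Pappa levels in the injury-activated cluster were 301, 927 and 633 CPM in I/R and 216, 246 and 331 CPM in SBP hearts, so that I/R replicate 1 lay below SBP replicate 3. The difference of −1.10 (interval −2.08 to −0.12) had an unadjusted p of 0.0329 and an adjusted p of 0.997. Sham hearts had 10 such nuclei in all, with 0 Pappa UMIs of 22543, which allows up to 133 CPM, so no sham level could be set. The summed markers of injury-activated fibroblasts over all fibroblast nuclei were 68.9 to 122 CPM in sham, 651 to 1540 CPM in I/R and 722 to 1330 CPM in SBP hearts, and their part in the Pappa change was not tested.

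In the Scara5 and Inmt cluster Pappa was at 55.5, 85.7 and 45.3 CPM in sham, 81.2, 111 and 110 CPM in I/R and 65.3, 55.1 and 45.7 CPM in SBP hearts. The I/R against sham change was 0.70 (interval 0.10 to 1.29, adjusted p = 0.243), which did not pass. The SBP hearts lay below all I/R hearts there as well (−0.88, interval −1.48 to −0.28, unadjusted p = 0.00774, adjusted p = 1.00). Across 36 sums of hearts and types, the genes whose pattern was most like that of Pappa were Col5a1 (r = 0.96), a fibrillar collagen, Adgrd1 and Adamts2, a procollagen peptidase.

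In operated hearts the myeloid Igf2r signal lay mostly in injury macrophages. In the cluster marked by Arg1, Gpnmb and Thbs1, the level was 83.7, 94.0 and 90.8 CPM in I/R and 99.8, 122 and 92.4 CPM in SBP hearts. Sham hearts had 34 of these nuclei, too few for sums. The resident macrophages, marked by Lyve1, Timd4 and Cd163, had 13.9, 22.2 and 15.9 CPM in sham, 39.1, 29.5 and 17.4 CPM in I/R and 23.9, 22.7 and 18.2 CPM in SBP hearts, and the I/R change did not pass (0.66, interval −0.05 to 1.36, adjusted p = 0.308). Other myeloid clusters held Igf2r as well. Dendritic nuclei were at 31.5 to 133 CPM in sham hearts, on 13 UMIs from 75 nuclei. Cycling myeloid nuclei were at 62.0 to 73.6 CPM in the 2 I/R hearts with enough of them. The injury macrophages were 60.3% of myeloid nuclei in I/R hearts and held 78.9% of the Igf2r UMIs, whereas in sham hearts they were 1.82% with 3.03%. Their summed markers over all myeloid nuclei were 33.9 to 44.6 CPM in sham, 1221 to 2451 CPM in I/R and 793 to 1572 CPM in SBP hearts, and the part of this shift in the Igf2r change was not tested.

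Of 5 endothelial clusters, 4 gave sums in all 9 hearts, and Igfbp4 was compared within these. It rose in capillary nuclei from 11.8, 13.4 and 12.5 CPM to 30.1, 33.0 and 29.1 CPM, with 25.2, 27.8 and 23.8 CPM in SBP hearts (I/R against sham 1.23 ± 0.23 SE, adjusted p = 0.00695; SBP against sham 0.98 ± 0.23 SE, adjusted p = 0.0326). In arterial nuclei the sham levels were 61.3, 34.2 and 32.2 CPM, on 13 UMIs in all, and the I/R levels 96.3, 202 and 275 CPM, on 82 UMIs (1.99 ± 0.42 SE, adjusted p = 0.0183). Every sham heart lay under the filter on low values there, so Igfbp4 entered this test through operated hearts alone. The arterial call is therefore a description and no added support for a rise. In endocardial nuclei the sham levels were 39.3, 39.2 and 38.0 CPM and the I/R levels 57.4, 111 and 137 CPM (1.28 ± 0.27 SE, adjusted p = 0.0495). In all these clusters each I/R heart was above each sham heart, while the lymphatic cluster overlapped and was not called. The capillary call against sham held without each heart in turn, the arterial one was lost without sham replicate 2 or 3 or I/R replicate 2 or 3 (adjusted p 0.0645 to 0.109), and the endocardial one was lost on leaving out any heart but I/R replicate 1 (adjusted p 0.0592 to 0.176) and with the replicate block (0.11). The capillary SBP against sham call was lost without any sham or SBP heart (adjusted p 0.0773 to 0.101).

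Lymphatic endothelium held the single member called for SBP against I/R. Igfbp7 there was at 116, 153 and 157 CPM in sham, 253, 365 and 261 CPM in I/R and 87.8, 104 and 78.4 CPM in SBP hearts, from 16 to 98 UMIs a heart and 55 to 122 nuclei. The I/R hearts lay above all others, and the SBP hearts below all others. I/R against sham was 0.98 ± 0.25 (SE, adjusted p = 0.0246) and SBP against I/R −1.70 ± 0.25 (SE, adjusted p = 0.00232), the only gene called of 5006 tested. The SBP call was lost without I/R replicate 2 (adjusted p = 0.0527) and without the variance trend and robust settings (adjusted p = 0.258), and the I/R call without sham replicate 1 or 2 or I/R replicate 2 (0.0527 to 0.192). In endocardial nuclei Igfbp7 was also lower in SBP hearts (66.0, 84.8 and 68.1 CPM) than in sham hearts (167, 137 and 230 CPM; −1.27 ± 0.24 SE, adjusted p = 0.0305), lost without sham replicate 1 or 3 or SBP replicate 1 or 3, and with the replicate block (adjusted p = 0.102). In capillary nuclei, which held most of the endothelial Igfbp7, sham levels were even at 521 to 536 CPM and I/R levels ran from 438 to 1062 CPM, and no change passed. These were the 7 member calls over 27 tests of clusters, each adjusted within its own cluster. For I/R against sham, the share of all genes called was 4.83% in capillary, 0.617% in endocardial, 1.97% in arterial and 3.44% in lymphatic nuclei, and for SBP against sham it was 2.98% in capillary and 0.493% in endocardial nuclei.

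**Figure D3:**
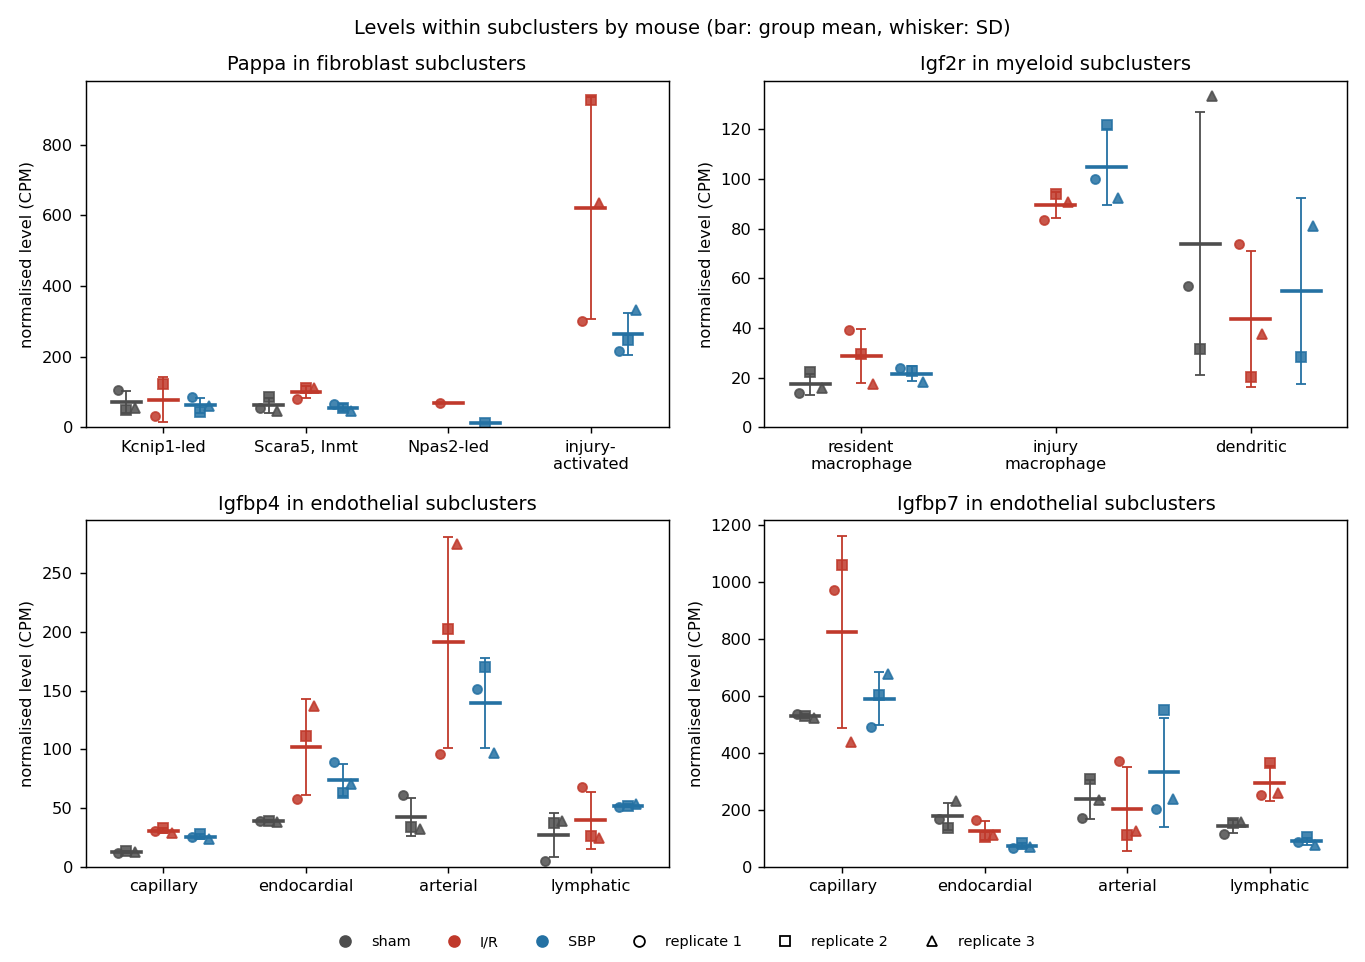
Level (CPM, linear axis from 0) of Pappa in fibroblast, Igf2r in myeloid and Igfbp4 and Igfbp7 in endothelial subclusters, with 1 point per heart with at least 20 nuclei, bars for group means and whiskers for SD. Pappa is highest in injury-activated fibroblasts (I/R 301 to 927 CPM), Igf2r is at 83.7 to 122 CPM in injury macrophages, which have no sham value, and reaches 133 CPM in a sham heart's dendritic nuclei, and lymphatic Igfbp7 is higher in I/R (253 to 365 CPM) than in SBP hearts (78.4 to 104 CPM).

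Igfbp5, the other substrate of pappalysin-1, varied between hearts more than between groups. In endothelial nuclei it was at 73.5, 102 and 57.0 CPM in sham, 85, 338 and 92.3 CPM in I/R and 480, 83.5 and 260 CPM in SBP hearts. The same hearts, I/R replicate 2 and SBP replicates 1 and 3, were the 3 highest in cardiomyocytes (18.0 to 36.2 CPM), fibroblasts (40.9 to 81.2 CPM) and myeloid nuclei (32.7 to 83.8 CPM). No group difference passed, the endothelial intervals being −0.65 to 2.36 for I/R against sham and −0.85 to 2.16 for SBP against I/R. In endocardial nuclei these 3 hearts reached 617, 742 and 459 CPM, against 88.2 to 157 CPM in the other 6. H19, the imprinted noncoding RNA beside Igf2, had the pattern most like it (r = 0.93 over 36 sums), with endothelial levels of 235 and 174 CPM in SBP replicates 1 and 3 and 43.2 to 98.5 CPM in the other hearts, I/R replicate 2 included. A small Lsamp-led endothelial cluster, left unnamed, had 19 nuclei in sham replicate 2, 7 in I/R replicate 2, 6 and 31 in SBP replicates 1 and 3, 3 in sham replicate 1 and 0 in the rest. This cluster held 10, 0 and 14 Igfbp5 UMIs in sham, I/R and SBP hearts, of 586, 1222 and 2111 endothelial ones. Its part in the Igfbp5 values was not tested.

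**Figure D4:**
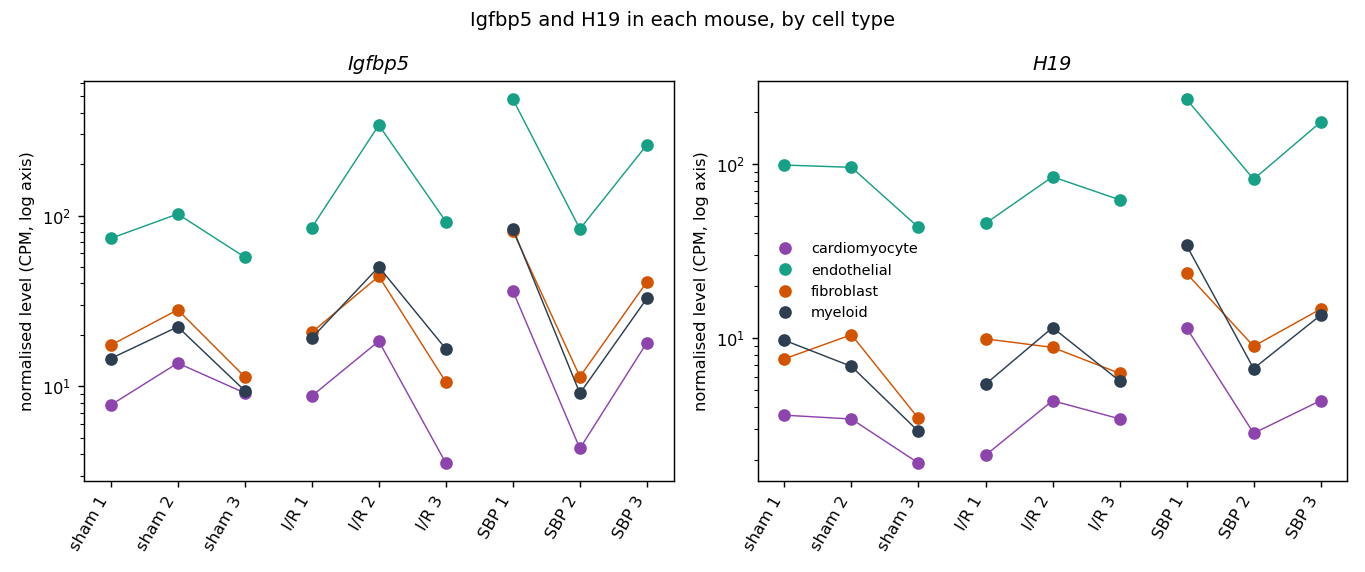
Level (CPM, log axis) of Igfbp5 and of H19 in each of the 9 hearts, with 1 colour per cell type. Igfbp5 is highest in I/R replicate 2 and SBP replicates 1 and 3 in all 4 cell types (endothelial 338, 480 and 260 CPM), and H19 in endothelial nuclei is highest in SBP replicates 1 and 3 (235 and 174 CPM).

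With all hearts in the fit, Igfbp6 and Igf1 were not called in the 4 cell types or in whole hearts. Igfbp6 in fibroblasts was at 17.4, 16.5 and 21.0 CPM in sham, 10.1, 25.3 and 22.6 CPM in I/R and 31.4, 15.3 and 20.8 CPM in SBP hearts, with all groups overlapping. Fibroblast Igf1 was at 161, 118 and 131 CPM in sham, 135, 58.6 and 127 CPM in I/R and 107, 160 and 172 CPM in SBP hearts. Myeloid Igf1 was at 77.6, 264 and 244 CPM in sham, 267, 51.4 and 110 CPM in I/R and 131, 193 and 217 CPM in SBP hearts, a spread between hearts of 1 group that exceeded any difference between groups. I/R replicate 2, which had the highest Pappa, had the lowest Igf1 in fibroblasts, myeloid nuclei and cardiomyocytes.

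Other genes of the pathway were read from lists of names. Of 17 further IGFBP proteases and matrix partners, I/R raised 3 of 12 tested in cardiomyocytes, 3 of 14 in endothelial nuclei, 5 of 15 in fibroblasts and 6 of 11 in myeloid nuclei, and lowered 1, in myeloid nuclei. Of all genes, 0.806%, 3.07%, 11.1% and 17.0% were called in these types. Adam12, which cleaves IGFBP3 and IGFBP5, rose in fibroblasts from 23.9 ± 8.25 to 680 ± 128 CPM (SD, n = 3; log2 fold change 4.79, adjusted p = 2.76e-06). Fn1, the fibronectin gene, rose there from 26.3 ± 10.4 to 451 ± 437 CPM (3.61, adjusted p = 0.0114), and Ctsl, a lysosomal cathepsin, rose in all 4 types, by 3.15 in myeloid nuclei. Their median log2 change over those tested was 0.78 in cardiomyocytes, 0.77 in endothelial nuclei, 0.45 in fibroblasts and 0.80 in myeloid nuclei, beside −0.01, −0.03, 0.01 and 0.01 for all genes. That of the members was 0.59, 0.34, 0.25 and 0.12.

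Of 17 other axis genes, 6 to 8 could be tested in a type. For I/R against sham, limma called 1 of 8 in cardiomyocytes (lower), 0 of 8 in endothelial nuclei (2 at an unadjusted p under 0.05), 2 of 7 in fibroblasts, 1 in each direction, and 4 of 6 myeloid ones, 2 in each direction, beside the same shares of all genes. Stc2, whose product stanniocalcin-2 inhibits pappalysin-1, fell in fibroblasts from 22.8 ± 1.84 to 12 ± 2.96 CPM (SD, n = 3; −0.90, adjusted p = 0.0226) and in cardiomyocytes from 15.6 ± 0.56 to 4.96 ± 2.13 CPM (−1.51, adjusted p = 0.0438), and it stayed below sham in SBP fibroblasts (10.8 ± 2.03 CPM, −1.04, adjusted p = 0.0171). In myeloid nuclei the growth hormone receptor Ghr fell (−1.31, adjusted p = 0.00176), and the mRNA-binding protein genes Igf2bp2 and Igf2bp3 moved apart (1.85 and −1.73, adjusted p = 0.000965 and 0.00829). Of 43 genes of insulin and IGF receptor signalling, 1 to 5 were called in a type, beside 0.806 to 17.0% of all genes. The cytokine signalling inhibitor Socs3 rose in all 4 types (1.62 to 2.79). Its sham mean in cardiomyocytes was only 0.98 CPM, so the same limit of the filter holds there. In fibroblasts the docking protein gene Irs1 fell (−1.21, adjusted p = 0.0182 by limma). In myeloid nuclei the receptor adaptor genes Grb10 (−0.95) and Grb14 (−1.40) fell and Gab1 rose (0.94). The myeloid sums mix resident and injury macrophages in shares that differ between groups, and hold cardiomyocyte background. The part of either in the myeloid changes of the listed genes was not tested. None of the 3 lists had a gene called for SBP against I/R by limma, with 0 to 4 genes a list and type at an unadjusted p under 0.05.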

How the data were processed

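Single-nucleus libraries (10x 3′ v3) of 9 mouse hearts were used, 3 per group by their labels. Per the labels, the authors' processing used Cell Ranger 4.0 with STAR on GRCm38 and Seurat 3.2.0, whereas the study's methods name later versions of Cell Ranger and Seurat, so which made the files is not settled. The methods also give filters on genes and on mitochondrial reads and removal of mitochondrial genes. The deposited values were natural log values per nucleus, ln(1 + 10000 × UMIs / total), made by the authors. UMIs were recovered by dividing by the smallest value of each nucleus, and 99.99936 to 99.99994% of values came out whole. The number of nuclei was below the one the study gives. Scrublet marked 0.173% of nuclei against 2168 expected doublets and was taken not to have worked, so doublets remain.

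Nuclei were clustered with scanpy 1.11.5 without the pathway genes, and clusters were named from fixed markers. UMIs were summed per heart and type (at least 20 nuclei) and scaled by TMM factors, and log2(CPM + 1) was fitted in limma 3.58.1 (R 4.3.3, trend and robust) over all 3 groups, with Benjamini-Hochberg adjustment over all genes with a level worth 10 UMIs at median depth in at least 3 hearts and 15 UMIs in all. Count models were not run. Neighbours in an order of types were compared by exact two-sided sign-flip permutation. All 10 members were described, and of other pathway lists the counts and at most 4 genes per list, type and comparison. The members and lists were chosen with earlier results of these data known. Labels do not say how hearts were batched. Depth limits the low members, and intervals of counts cover counting error only.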

Additional observations from a re-analysis of the deposited data

Results flagged for a closer look

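For 4 member and cell type pairs, the I/R against sham change differed between 2 cell types when the difference within each heart was itself fitted in limma over all 9 hearts. The Pappa change in endothelial nuclei was below that in fibroblasts by a log2 difference of −1.52 (adjusted p = 0.0387; 0.493% of 11765 genes were called). For Pappa, cardiomyocyte minus fibroblast, at −1.21, was not called (adjusted p = 0.144). The Igfbp4 change in endothelial nuclei was above that in myeloid nuclei by 1.83 (adjusted p = 0.0228; 2.93% of 10388 genes were called). For Igfbp4, endothelial minus fibroblast, at 1.10 (adjusted p = 0.0658), and cardiomyocyte minus endothelial, at −0.45 (adjusted p = 0.514), were not called. The Igf2r change in myeloid nuclei was larger than in endothelial nuclei and fibroblasts: endothelial minus myeloid was −1.36 (adjusted p = 0.0347) and fibroblast minus myeloid −1.19 (adjusted p = 0.0155; 6.59% of 10501 genes were called). For Igf2r, cardiomyocyte minus myeloid, at −0.99, was not called (adjusted p = 0.133). Under 21 alternatives the 4 called differences, in the order given, were called in 6, 14, 12 and 19. All groups held 3 hearts, so single hearts were not tested as outliers.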

How the results depend on the processing

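Over 135 member changes and 2757 alternative fits, direction and side of the threshold were kept in 2623, 98 turned direction with neither value called, 31 lost a call and 5 gained one, and no called change was reversed. Fibroblast Pappa, endothelial Igfbp4 (I/R against sham) and myeloid Igf2r (against sham, I/R and SBP) kept their calls in 21 of 21. Of 36 correlations of same-numbered hearts, from −0.317 to 0.30, 11 passed 0.1. Those of replicate 3 were positive throughout (0.034 to 0.30), while differently numbered hearts reached 0.368. The same-numbered and differently numbered values of a heart nearly cancelled, as for replicate 3 in fibroblasts, SBP against I/R (0.30, −0.18 and −0.13). Positive values for some pairs thus came with negative ones for others, and the 36 values reuse 9 hearts. Whether hearts of different groups shared structure could therefore not be read from them. All 3 numbers passed 0.1 only in fibroblasts for SBP against sham (0.108 to 0.126), where the replicate block left 0 members called, as without it. With the replicate block, members called were 0 for SBP against sham in endothelial nuclei (main 1), 1 for I/R against sham in myeloid nuclei (main 2), 2 for SBP against sham in myeloid nuclei (main 1), and 2 differences between cell types (main 4). SBP against sham in endothelial nuclei was also 0, and I/R against sham 1 in fibroblasts and 1 in myeloid nuclei, without trend or robust variances and with cell types from marker scores. With only the 2 groups compared, fibroblasts and myeloid nuclei each had 1, and with no filter on low genes myeloid nuclei had 1. Total UMI scaling gave 2 in whole hearts. Differences between cell types numbered 9 with a pseudocount of 5 and 1 with no filter. Within subclusters 7 calls became 2 without trend or robust variances and 9 with no filter, and endocardial Igfbp4 (I/R against sham) was also lost with the replicate block (adjusted p = 0.11), total UMI scaling (0.0613), a pseudocount of 0.25 (0.0576) and only the 2 groups compared (0.0994), endocardial Igfbp7 (SBP against sham) with the block (0.102), and capillary Igfbp4 (SBP against sham) with no filter (0.0669). The 5 separated neighbours in the order of types became 0 with median-of-ratios scaling or a pseudocount of 5, 14 with marker scores or with the highest doublet scores removed, and 10 with pathway genes left in the clustering. Leaving out 1 heart gave 0 to 1 calls in cardiomyocytes, 1 to 2 in fibroblasts, 1 to 2 in myeloid nuclei and 0 to 3 in whole hearts for I/R against sham, 0 to 1 for SBP against sham in endothelial nuclei, 3 to 10 within subclusters, 0 to 4 differences between cell types and 0 to 16 separated neighbours. The cause of these shifts was not tested. SBP against I/R had 0 calls in the 4 types and whole hearts under every alternative run.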
